A study of Homo sapiens with 4 samples.

Results

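The translation initiation factor genes were taken as the protein-coding genes whose symbol is EIF followed by a number, and they came to 56 of the 20176 protein-coding genes of the annotation. They carried 15 of the 8070 m7G peaks listed for HL60 and 12 of the 8122 listed for HL60/MX2, where a peak belongs to the gene whose exons it covers most on its own strand. HL60 is a promyelocytic cell line from acute myeloid leukemia, labelled wild type, and HL60/MX2 is its drug-resistant line. Both were grown in the same medium, and the labels name no drug treatment. The treatment field of the input libraries reads only "input". The mRNA of each line was decapped before it was fragmented, enriched with an m7G antibody and sequenced, so that m7G inside the RNA rather than the cap was to be enriched, and how complete the decapping was is not given. The series holds 4 libraries, an enriched and an input library per line. The 2 peak lists analysed here come from the enriched libraries, 1 per line, so nothing was tested between the lines, and the exact Clopper-Pearson 95% intervals cover counting error only. The lists give a position, a strand and a score for each peak and no read counts, so the depth is unknown.

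In cells, translation begins when the cap of an mRNA, itself an m7G, is bound by eIF4E, which joins the scaffold eIF4G and the helicase eIF4A. The eIF3 complex ties this assembly to the small ribosomal subunit, and eIF2 brings the initiator tRNA. The guanine nucleotide on eIF2 is exchanged by eIF2B, and kinases that phosphorylate eIF2 under stress slow this exchange. Later, eIF5 and eIF5B act in start codon recognition and in the joining of the large subunit.

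In HL60, 11 of the 56 genes carried a peak, 19.6% (10.2-32.4%), against 26.4% of all protein-coding genes. In HL60/MX2, 7 genes did, 12.5% (5.18-24.1%), against 28.5% of all genes. Present in both lists were EIF2AK4, EIF2B4 and EIF3C, 5.36% of the 56, where 12.0% of all genes had a peak in both. A peak was listed for HL60 alone in 8 genes, EIF2AK1, EIF2AK2, EIF2AK3, EIF2B3, EIF3H, EIF4E3, EIF4ENIF1 and EIF5A2. For HL60/MX2 alone there were 4, EIF2B2, EIF3A, EIF4G3 and EIF5B. The remaining 41 genes had no listed peak in either line. Thus 26.8% of the 56 genes were on either list, where 42.9% of all genes were. Of all genes, 5324 were on the HL60 list and 5753 on the HL60/MX2 list, but only 2423 on both. Genes listed for a single line were therefore common among all genes too. For each list taken alone, the share of all genes lay inside the interval of the 56 genes in HL60 and above it in HL60/MX2.

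Peaks in coding exons of the cap-binding factors, of EIF3A and of EIF5B are shown first, since they include the highest scores among the initiation factor genes. The 673 bp peak in exon 4 of EIF5B is left out for its length. Each sequence is the coding part of the peak in the hg19 (GRCh37) genome, written 5' to 3' on the strand of the gene, with capitals at 2 kinds of short motif that the study names. The first kind was spelled CTGGA, and the spellings counted with it were CTGGG, then also CTGTA, and lastly the form CTGTG. The second kind was spelled GGAAA or, in its other permitted form, GGAAG.
EIF5B exon 7, HL60/MX2, chr2:99984956-99985054, plus strand: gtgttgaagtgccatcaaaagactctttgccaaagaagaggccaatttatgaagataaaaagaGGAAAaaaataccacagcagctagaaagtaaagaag
EIF5B exon 8, HL60/MX2, chr2:99985855-99985944, plus strand: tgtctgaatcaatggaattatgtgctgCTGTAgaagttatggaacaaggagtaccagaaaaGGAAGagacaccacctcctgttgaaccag
EIF3A exon 18, HL60/MX2, chr10:120803566-120803654, minus strand: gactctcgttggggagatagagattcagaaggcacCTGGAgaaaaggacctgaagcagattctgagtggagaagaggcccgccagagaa
EIF3A exon 20, HL60/MX2, chr10:120797750-120797951, minus strand: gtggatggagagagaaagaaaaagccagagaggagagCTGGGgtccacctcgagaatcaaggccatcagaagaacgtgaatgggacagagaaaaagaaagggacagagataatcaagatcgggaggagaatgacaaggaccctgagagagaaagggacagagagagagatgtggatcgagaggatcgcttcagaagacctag
EIF4G3 exon 4, HL60/MX2, chr1:21329240-21329301, minus strand: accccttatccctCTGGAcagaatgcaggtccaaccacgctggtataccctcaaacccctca
EIF4E3 exon 3, HL60, chr3:71748765-71748859, minus strand: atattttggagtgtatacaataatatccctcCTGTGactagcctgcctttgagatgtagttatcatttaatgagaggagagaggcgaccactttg

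The next set shows the short HL60 peaks of EIF2AK4, the gene with the most peaks, its coding HL60/MX2 peak, and the coding stretch of EIF2B4 that was under a peak in both lists. The capitals mark the same letters, and the genome build is the same.
EIF2AK4 exon 4, HL60, chr15:40241442-40241469, plus strand: ggaggccaagcGGAAAgaagagcaggag
EIF2AK4 exon 23, HL60, chr15:40295394-40295426, plus strand: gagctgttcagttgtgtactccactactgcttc
EIF2AK4 exon 30, HL60, chr15:40311380-40311401, plus strand: tgtcctcaacatggaggaatct
EIF2AK4 exon 37, HL60, chr15:40324958-40325002, plus strand: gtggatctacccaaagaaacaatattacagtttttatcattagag
EIF2AK4 exon 11, HL60/MX2, chr15:40265893-40265950, plus strand: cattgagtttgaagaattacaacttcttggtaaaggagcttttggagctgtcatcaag
EIF2B4 exon 9, both lists, chr2:27589941-27590068, minus strand: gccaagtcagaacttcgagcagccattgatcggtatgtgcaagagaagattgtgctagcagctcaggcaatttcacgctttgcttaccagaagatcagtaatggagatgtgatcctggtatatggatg

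Matches of both kinds were found in the EIF5B exon 8 sequence, and also in whole peaks not printed here, namely those in EIF5B exon 4 and EIF5A2, the HL60 peak of EIF2B4 and, beyond the stretch shown, the HL60/MX2 peak of EIF2AK4 at exon 11. In the EIF2AK4 and EIF2B4 set, 5 of the 6 stretches had no match and the exon 4 stretch of EIF2AK4 had 1. Over all initiation factor peaks, a motif of the first kind on the sense strand was found in 7 of 15 HL60 peaks, 46.7%. The share was 44.2% in the list's peaks of like length (within 10% of the same number of bases) given to a gene. In HL60/MX2 this motif was found in 7 of 12, 58.3%, against 65.2%. A motif of the second kind on the sense strand was found in 4 of 15 HL60 peaks, 26.7%, against 35.9%, and in 4 of 12 HL60/MX2 peaks, 33.3%, against 50.7%. On the antisense strand the first kind was in 46.7% of the HL60 and 75.0% of the HL60/MX2 initiation factor peaks, where peaks of like length had 45.8% and 63.8%. The second kind was there in 5 of 15 and 6 of 12, where peaks of like length had 27.7% and 40.8%. Matches of both kinds can lie in the same peak, and a match describes letters, not a modified base. The median GC content was 42.9% in the HL60 peaks and 50.4% in the HL60/MX2 peaks. It was near the 45.1% and 48.0% of all peaks of at least 5 nt given to a gene.

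The initiation factor genes were somewhat longer than most. Their merged exons, counting every annotated transcript, had a median of 5516 bp, against 4386 bp over all genes, and longer genes have more room for peaks. Each gene was therefore read beside all genes of like exon length and number, in 20 bins of exon length with 5 bins of exon number in each. Both were taken from the merged exons, which can differ much from one transcript. EIF2B4 has 4 merged exons, where its longest coding transcript has 12. Among those like-sized genes, 29.3% carried a peak in HL60, which for 56 genes comes to 16.4 genes, where 11 were found. In HL60/MX2 the share was 31.3%, or 17.5 genes, where 7 were found, and for both lists together it came to 7.50 genes, where 3 were found. For the number of peaks, the means of like-sized genes summed to 23.1 for HL60 and 23.5 for HL60/MX2, against the 15 and 12 listed. Per megabase of merged exon the initiation factor genes had 40.0 peaks in HL60 and 32.0 in HL60/MX2, where all genes had 69.4 and 69.9. The count lay below that of like-sized genes in both lines for genes and for peaks. For genes, the like-sized share was inside the interval of the 56 in HL60 (10.2-32.4%) and above it in HL60/MX2 (5.18-24.1%).

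**Figure D1:**
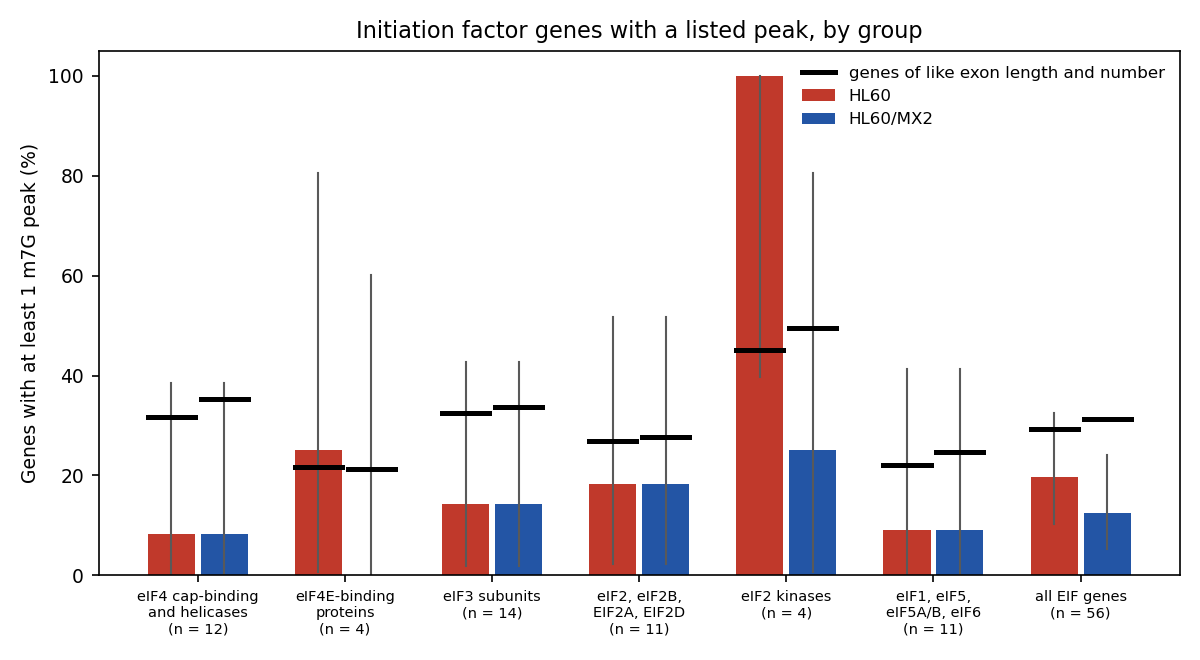
Percent of genes with a peak (y axis) in each group of initiation factors (x axis, with n genes), as bars for HL60 (red) and HL60/MX2 (blue) with exact 95% intervals as thin lines, and black marks at the percent among like-sized genes. The HL60 bar of the eIF2 kinases, 100%, stands above its mark of 45.1%, and the cap-binding and eIF3 bars stand below theirs in both lines. The intervals of all these bars, the kinase bar included, reach their marks.

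Size also separated the members from each other. A median of 6925 bp of merged exon and of 17 exons in the longest coding transcript was found for the 15 genes that carried a peak, and of 4414 bp and 9 exons for the 41 that did not. The genes with a peak included long many-exon ones, such as EIF2AK4 with 39 exons and EIF4G3 with 33, yet the 5-exon EIF5A2 carried a peak too. Among genes without a peak were several where a large share of like-sized genes had one. EIF4G1, the main scaffold of the cap-binding complex, had 8752 bp of merged exon, and 53.0% and 53.4% of its like-sized genes carried a peak in HL60 and HL60/MX2. For EIF3E, a subunit of the eIF3 complex, these shares were 51.6% and 50.2%. Its merged exons of 37761 bp far exceed its longest coding transcript of 4044 nt, so its like-sized genes are matched on the greater length.

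**Figure D2:**
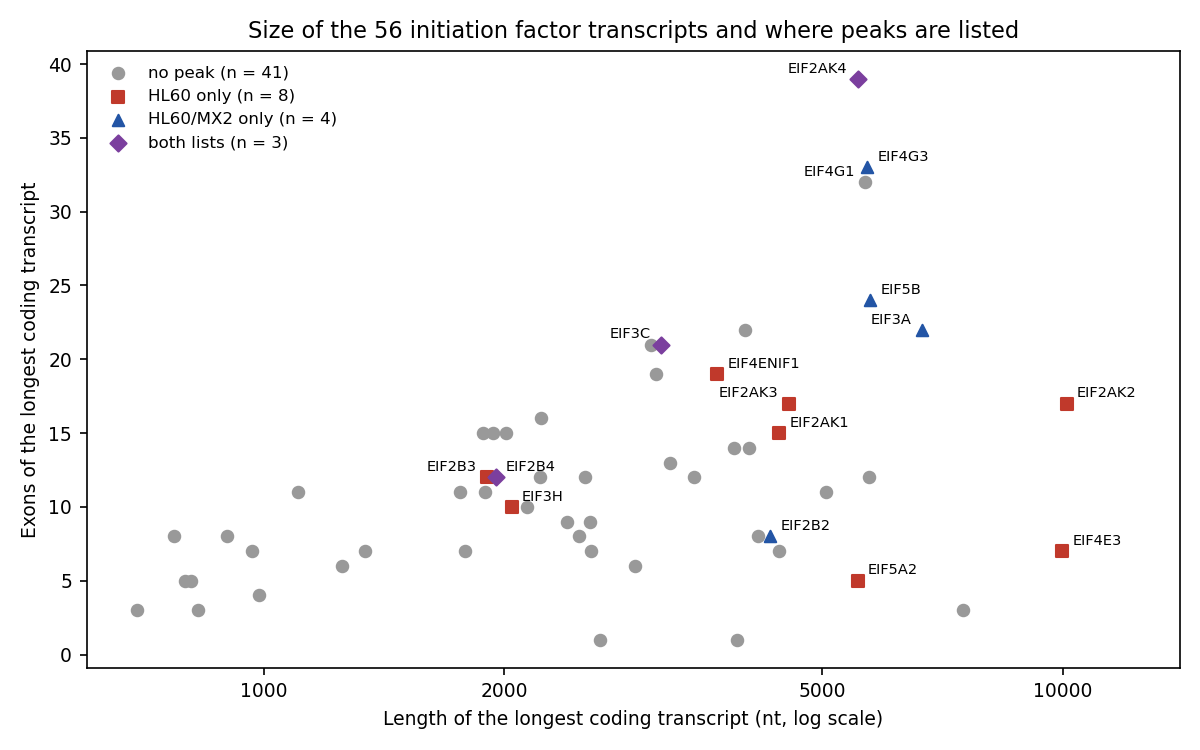
Length of the longest coding transcript in nt (x axis, log scale) against its number of exons (y axis) for the 56 initiation factor genes, 1 point per gene, marked by the list or lists on which the gene has a peak. Genes with a peak lie mostly to the right, EIF2AK4 has the most exons, 39, and EIF4G1 lies beside EIF4G3 but has no peak.

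Of the 12 cap-binding factors and helicases, EIF4E3 carried a peak in HL60 and EIF4G3 in the resistant line, 1 gene each, where like-sized genes would give 3.80 and 4.23. EIF4E3, a member of the eIF4E family, had an HL60 peak of 95 bp over the whole of exon 3 of 7, at codons 84 to 115 of 224. Its score was 131, at percentile 32.0 of the HL60 list, which lies below the list median of 197. The peak also overlapped exons of another annotated gene. EIF4G3, a scaffold related to eIF4G1, had an HL60/MX2 peak of 62 bp in exon 4 of 33, at codons 290 to 310 of 1895. Its score of 275 was at percentile 52.4, just above the list median of 260. The factors named most often in cap-dependent translation had no listed peak in either line. They were EIF4E, which binds the cap, the helicases EIF4A1 and EIF4A2, the scaffold EIF4G1, and EIF4B and EIF4H, which stimulate the helicase. EIF4G2, EIF4E2, EIF4E1B and EIF4A3, a core part of the exon junction complex, had none either. The like-sized genes of EIF4E carried a peak in 22.6% and 23.8% of cases, so most genes of its size had no peak in either list taken alone.

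Among the 4 proteins that bind eIF4E and limit or relocate it, EIF4ENIF1 carried a peak. It codes for the protein that shuttles eIF4E into the nucleus. Its HL60 peak spanned 143 bp, chr22:31843412-31843554 on the minus strand of hg19, in coding exon 14 of 19 at codons 617 to 663 of 985. The score of 144 was the median score of the initiation factor peaks in HL60 and lay at percentile 36.4 of the list. EIF4EBP1, EIF4EBP2 and EIF4EBP3, the repressors controlled by mTOR, had no peak in either list.

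Of the 14 eIF3 genes, 2 were on the HL60 list and 2 on the HL60/MX2 list, where like-sized genes would give 4.53 and 4.72. EIF3A, the largest scaffold subunit, had 2 peaks in HL60/MX2 and none in HL60. The first covered all of exon 18 of 22, 89 bp at codons 887 to 916 of 1382, with a score of 435 at percentile 70.6. The second spanned 401 bp, of which 202 were in exon 20 and 199 lay outside exons, at codons 1176 to 1243. Its score was 2520, at percentile 99.1 and in place 72 of the 8122 peaks. Both lie in the C-terminal part of the coding sequence and both were above the list median.

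EIF3C was the eIF3 gene with a peak in both lists. In HL60, 271 bp at chr16:28699879-28700149 (hg19, plus strand) covered a first exon used by 1 of 14 annotated transcripts, with a score of 89.6 at percentile 17.7. In HL60/MX2, 58 bp at chr16:28700092-28700149 lay inside it, with a score of 56.2 at percentile 2.23, which is near the lowest score listed, 50.03. The shared 58 bp made up 100% of the HL60/MX2 peak and 21.4% of the HL60 peak. A further HL60/MX2 peak of 337 bp at chr16:28722772-28723108 lay around the start codon, with a score of 169 at percentile 34.0. EIF3C is uncertain, since 100-base windows from the first and last of these peaks and the whole 58 bp peak each occur again on chromosome 16. The copy of the last lies in EIF3CL, a near-identical gene, and those of the others in no protein-coding gene. Without EIF3C, 10 genes were on the HL60 list, 6 on the HL60/MX2 list and 2 on both.

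EIF3H, a smaller subunit, carried the remaining eIF3 peak, 200 bp in HL60 with a score of 159 at percentile 40.5. It was classed as 5'UTR and lay in an exon of 1 of 11 annotated transcripts. The other 11 eIF3 genes, EIF3B, EIF3CL, EIF3D, EIF3E, EIF3F, EIF3G, EIF3I, EIF3J, EIF3K, EIF3L and EIF3M, had no peak in either list.

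In the group of eIF2 and eIF2B with EIF2A and EIF2D, 2 of 11 genes were on each list, where like-sized genes would give 2.96 and 3.04. The peaks all lay in genes of eIF2B, the exchange factor. EIF2B2, which codes for its beta subunit, had an HL60/MX2 peak in exon 3 of 8, 117 bp at chr14:75470286-75470402 (plus strand), codons 106 to 145 of 351, with a score of 106 at percentile 18.4. EIF2B3, which codes for the gamma subunit, had an HL60 peak in exon 7 of 12, 97 bp at chr1:45347284-45347380 (minus strand), codons 230 to 262 of 452, with a score of 212 at percentile 53.7. The EIF2B3 peak was above its list median and the EIF2B2 peak below it.

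EIF2B4, for the delta subunit, was under a peak in both lines. The HL60 peak ran over 783 bp at chr2:27589915-27590697 (minus strand), took in exons 7 to 9 of 12 and covered 308 nt of the longest coding transcript. The HL60/MX2 peak, 244 bp at chr2:27589875-27590118, covered exon 9 and had 128 nt on that transcript. The rest of both peaks lay in exons of other transcripts only. The peaks shared 204 bp, 26.1% of the HL60 peak and 83.6% of the HL60/MX2 peak. The 128 bases of exon 9 printed above lie within this overlap. The scores of the 2 peaks were 90.1, at percentile 17.9 of the HL60 list, and 103, at percentile 18.0 of the HL60/MX2 list. Both were thus low in their own list. No listed peak lay in EIF2S1, EIF2S2 and EIF2S3, the subunits of eIF2 itself, in EIF2B1, EIF2B5, EIF2A or EIF2D, or in EIF2S3B.

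All 4 eIF2 kinase genes carried a peak in HL60, 100% (39.8-100%), where like-sized genes would give 1.80. The interval holds the 45.1% of like-sized genes. In HL60/MX2, 1 of 4 kinase genes did, where like-sized genes would give 1.99. These kinases respond to heme shortage (EIF2AK1), double-stranded RNA (EIF2AK2), unfolded protein in the endoplasmic reticulum (EIF2AK3) and uncharged tRNA (EIF2AK4). Together they held 8 of the 15 HL60 initiation factor peaks, against 3.03 at the means of like-sized genes, and 2 of the 12 in HL60/MX2, against 3.05. The 8 HL60 peaks were short. They ran from 7 to 140 bp, 7 of them at most 45 bp long, and all 8 had a start or end exactly at an exon border. The 140 bp peak is in EIF2AK2, the only kinase gene with an HL60 peak of at least 50 bp. In HL60/MX2, EIF2AK4 was likewise the only kinase gene with a peak of that length. The short kinase peaks were the 7 initiation factor peaks under 50 bp in HL60, 46.7% of the 15. Of all HL60 peaks given to a gene, 16.8% were under 50 bp. In HL60/MX2, 0 of the 12 were, where 15.9% of all peaks given to a gene were. This length pattern was seen in the values and not chosen ahead of them.

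EIF2AK4 had the most peaks of the 56 genes, 4 in HL60 and 2 in HL60/MX2. The HL60 peaks were 28, 33, 22 and 45 bp long and lay in exons 4, 23, 30 and 37 of 39, at codons 162 to 171, 1079 to 1090, 1384 to 1391 and 1577 to 1591 of 1649. In the same order their scores were 60.3, 107, 176 and 150, all below the list median, at percentiles 5.56, 24.0, 45.2 and 38.5. The exon 37 peak covered its exon whole. In HL60/MX2, a peak of 216 bp at chr15:40226325-40226540 (plus strand) lay around the start codon in exon 1, with a score of 85.0 at percentile 12.6. Another of 210 bp at chr15:40265893-40266102 reached exon 11, of which 58 nt are on the longest coding transcript at codons 587 to 606, with a score of 169 at percentile 34.0. No HL60 peak of EIF2AK4 overlapped an HL60/MX2 peak, and the nearest pair was 341 nt apart along the transcript. Over all 2423 genes on both lists, 81.0% likewise had no peak that overlapped one of the other list, and 461 genes had at least 1 that did. Of the initiation factor genes on both lists, EIF2B4 and the uncertain EIF3C had overlapping peaks, 2 of 3.

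The other kinases had peaks in HL60 only. EIF2AK3 had 1 of 44 bp in exon 10 of 17, chr2:88883017-88883060 (minus strand), codons 551 to 565 of 1116, with a score of 166 at percentile 42.4. A second, of 7 bp, lay in an exon of a noncoding transcript only, with a score of 109 at percentile 24.8. EIF2AK2 had the longest kinase peak, 140 bp in exon 5 of 17, chr2:37368705-37368844 (minus strand), codons 81 to 127 of 551, with a score of 143 at percentile 35.8. EIF2AK1 had 1 of 43 bp, chr7:6086835-6086877 (minus strand), in an exon of 1 of 10 transcripts, with a score of 197 at percentile 50.5. It was the only kinase peak above its list median.

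**Figure D3:**
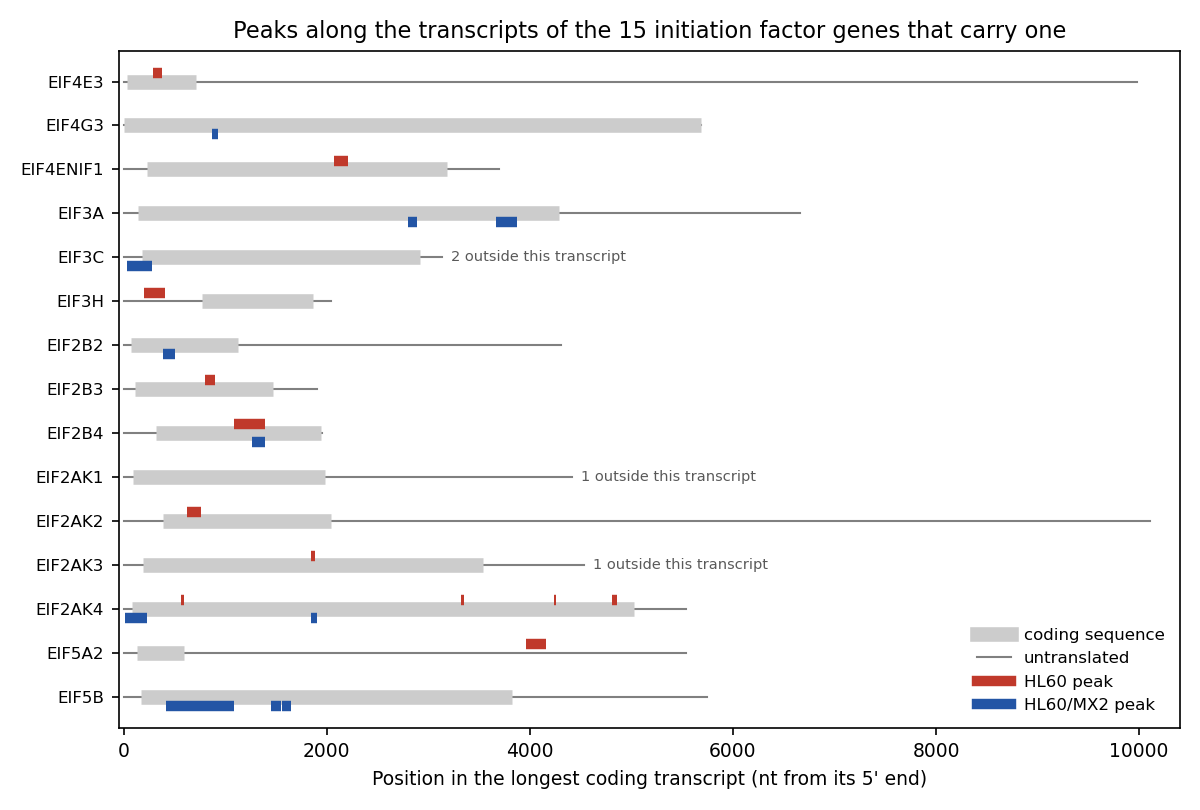
Peaks of the 15 initiation factor genes that carry any, along the longest coding transcript (x axis, nt from its 5' end; y axis, gene), with the coding sequence in thick grey, HL60 peaks in red above and HL60/MX2 peaks in blue below. Most lie inside the coding sequence, the EIF2AK4 peaks of the lines lie apart, and those of EIF2B4 overlap.

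In the group of eIF1, eIF5, eIF5A, eIF5B and eIF6, 1 of 11 genes carried a peak in each line, where like-sized genes would give 2.42 and 2.72. EIF5A2, a relative of the elongation-linked factor eIF5A, had the only 3'UTR peak, 200 bp in HL60 in exon 5 of 5, chr3:170607580-170607779 (minus strand). Its score of 244 at percentile 60.2 was the highest of the HL60 initiation factor peaks. EIF5B, the GTPase of subunit joining, had 3 peaks in HL60/MX2 and none in HL60. The first spanned 673 bp over the whole of exon 4 of 24, chr2:99977611-99978283 (plus strand), codons 83 to 307 of 1220, with a score of 276 at percentile 52.5. The second covered exon 7, 99 bp at codons 430 to 463, with a score of 72.8 at percentile 8.14. The third covered exon 8, 90 bp at codons 463 to 493, with a score of 2917 at percentile 99.3 and in place 58 of the list. Exons 7 and 8 are neighbours in the mRNA, yet hold the lowest and the highest score of the gene. No peak was listed in EIF1, EIF1AX or EIF5, which act in start codon selection, in EIF5A or in EIF6, which keeps the subunits apart.

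Within its list, an initiation factor peak typically ranked below the middle. In HL60 the scores ran from 60.3 to 244 with a median of 144, and 3 of 15 lay above the list median of 197. In HL60/MX2 they ran from 56.2 to 2917 with a median of 169, and 5 of 12 lay above the list median of 260. The median percentile was 36.4 in HL60 and 34.0 in HL60/MX2. The exon 20 peak of EIF3A and the exon 8 peak of EIF5B stood far above the rest in HL60/MX2, and no HL60 peak of an initiation factor passed percentile 60.2. The scale of the score is not stated in the sources used here, so scores were not compared between the lists.

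**Figure D4:**
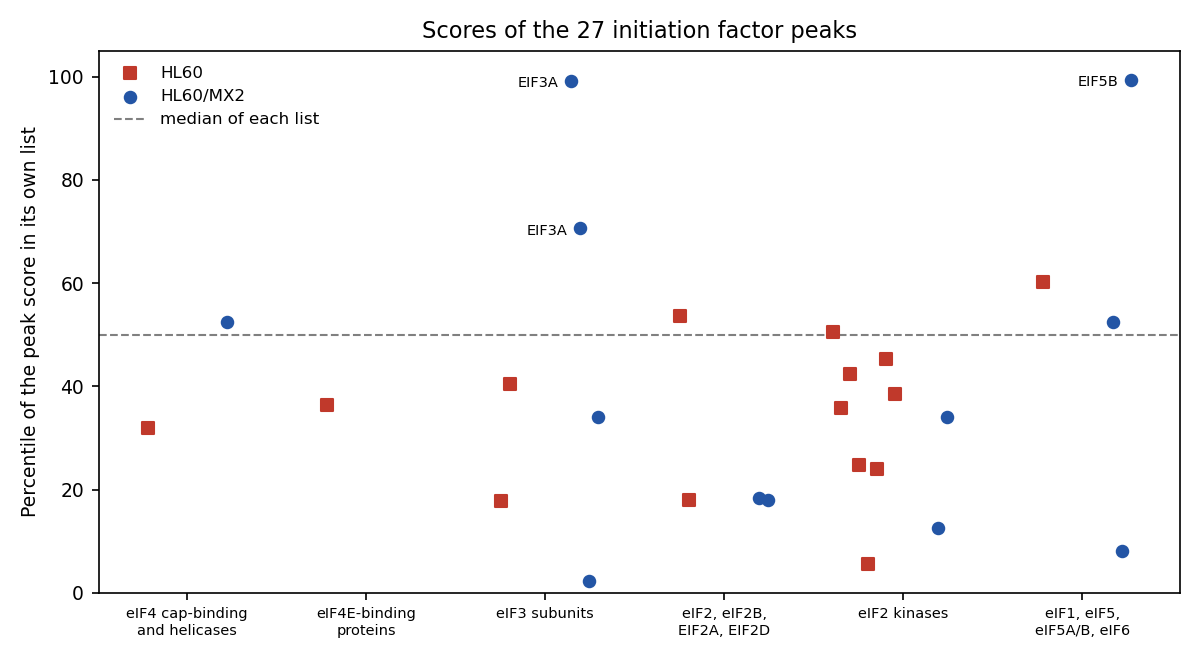
Score percentile of each initiation factor peak within its own list (y axis, percentile; x axis, group of factors), with HL60 as red squares, HL60/MX2 as blue circles and a dashed line at the list median. Most points lie below the line, the HL60 points end at 60.2, and the EIF3A and EIF5B peaks of HL60/MX2 lie at 99.1 and 99.3.

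By region, the peaks were mainly in coding sequence. On the longest coding transcript, with the start and stop codon classes reaching 100 nt to each side, 12 of the 15 HL60 peaks could be classed and 10 were coding, 83.3% (51.6-97.9%), where 64.1% of all classed HL60 peaks were. In HL60/MX2, 9 of 11 were, 81.8% (48.2-97.7%), against 59.9%. The share of all peaks lay inside the interval in both lines. The remaining HL60 peaks were that of EIF3H in the 5'UTR and that of EIF5A2 in the 3'UTR, and the remaining HL60/MX2 peaks were those of EIF3C and EIF2AK4 around the start codon, 18.2% against 11.9%. None was classed around the stop codon, where 4.53% and 4.31% of all classed peaks lay. In the 15 genes with a peak, 45.6% of the transcript length was coding outside the codon windows and 44.8% was 3'UTR. When any coding isoform was allowed and the codon classes were given first, the coding share was 57.1% in HL60 and 58.3% in HL60/MX2. A start or end exactly at an exon border of any annotated transcript was found for 80.0% and 83.3% of the initiation factor peaks. Among all peaks given to a gene, 70.6% and 71.5% had one. Peaks that only ran past an exon border were not counted. A whole exon was covered by 40.0% and 66.7%, where all peaks given to a gene had 29.7% and 29.8%.

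Among 33 further genes that regulate initiation, such as mTOR, its partner RPTOR, the eIF4E kinases MKNK1 and MKNK2 and the poly(A)-binding proteins, 6 were on the HL60 list, 18.2%, and 9 on the HL60/MX2 list, 27.3%. Of all genes, 26.4% and 28.5% were, and like-sized genes would give 11.0 and 11.9. A peak in both lists was found for 3 of the 33, where 12.0% of all genes had one in both. They were MKNK1, PAIP2, an inhibitor of the poly(A)-binding protein, and CYFIP1, which binds eIF4E with FMR1. Scores in HL60 and HL60/MX2 were 93.7 and 126 for MKNK1, 83.4 and 51.9 for PAIP2, and 108 and 63.7 for CYFIP1, all below their list medians. The 7 HL60 peaks of the regulators had scores from 83.4 to 311, with 1 above the list median, and the 11 HL60/MX2 peaks had scores from 51.8 to 726, with 4 above it.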

How the data were processed

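Peaks of m7G-enriched mRNA were analysed for HL60 and HL60/MX2, with 1 enriched library per line. As stated in the study's methods, reads were trimmed with Cutadapt 1.9.3 and aligned to hg19 with HISAT2 2.0.4, peaks were called with MACS (version and settings not given in the sources used here), and peaks on exons of protein-coding genes were kept. The deposited lists hold a position, a strand and a score, whose scale and normalization the authors do not state. No listed score is below 50, so weaker peaks are not listed. The input libraries were not analysed here. Starts were changed to count from 1. Each peak went to the protein-coding gene of GENCODE release 44, lifted to GRCh37, with the largest same-strand exon overlap, where 7740 and 7804 peaks found one. Like-sized genes and region classes were computed as given beside the values (Python 3.11.15, numpy 2.4.6, scipy 1.17.1, pyfaidx 0.9.0.4). Peak assignment was tested on simulated data over all annotated genes, where 97.8% of 2000 peaks returned to their gene, and 100% of 1000 windows to their region. No comparison between lines was tested. Every initiation factor gene with a peak was named with its values, and other pathway genes where both lists held a peak, while EEF2K and GSPT1 were named after their values were seen. The members and lists were chosen with earlier results of these data known. Peak sequences came from the hg19 genome. No protein sequences were used here.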

Additional observations from a re-analysis of the deposited data

How the results depend on the processing

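Of 43 alternatives tried, 10 moved a count by over 1.5 times or to 0, or another value out of its 95% interval for counting error, and 33 did not. These intervals are wide for the initiation factor peaks, so the coding shares of 57.1% and 58.3% with any coding isoform, against 83.3% and 81.8%, fall within them, while those for the shares of like-sized genes are narrow. With only peaks at or above the median score of their list, 3 genes in HL60, 3 in HL60/MX2 and 0 in both carried a peak, with 3 and 5 peaks, and 0 peaks were shared. This filter lowers the counts of all genes too, and their shares under it are not given here. Without the kinases, binding proteins and near copies, 6 genes of this smaller set carried a peak in HL60, and its like-sized share is not given here. With only peaks of at least 50 bp, HL60 had 8 peaks, and EIF2AK2 was the only kinase gene that kept one. Strata of exon length alone gave 32.4% for HL60/MX2. Asking for 50% of both peaks left 0 shared peaks. Leaving out EIF3C and using the longest coding transcript for the strata were chosen after seeing the data. Those transcript strata gave like-sized shares of 29.0% for HL60 and 30.6% for HL60/MX2. No paired analysis was possible because each line has 1 enriched library. The lists give no depth, so a gene without a peak is only one for which none was listed.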

Other observations

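Of 12 genes for elongation and termination, 1 was on each list, 8.33%, where like-sized genes would give 3.02 and 3.26. Of all genes, 26.4% were on the HL60 list and 28.5% on the HL60/MX2 list. The 2 genes that carried a peak, EEF2K and GSPT1, are named here after their values were seen. The HL60 peak lay in EEF2K, the kinase of elongation factor 2, with a score of 117, and the HL60/MX2 peak in GSPT1, a release factor, with a score of 496, above its list median of 260. Neither gene was on both lists.

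The lists number their peaks, and the numbers skip. The 4 HL60 peaks of EIF2AK4 spanned 29 numbers, of which 25 belong to no listed peak, and its 2 HL60/MX2 peaks spanned 13, of which 11 belong to none. The 2 HL60 peaks of EIF2AK3 spanned 21 numbers, of which 19 belong to none. In HL60/MX2, the 3 peaks of EIF5B spanned 4 numbers with 1 skipped, and the 2 peaks of EIF3A had consecutive numbers. The 2 HL60/MX2 peaks of EIF3C spanned 6 numbers with 4 skipped. How often numbers skip over the whole lists is not given here.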
